A study of Mus musculus with 8 samples.

Results

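The genes described here encode the urea cycle and the enzymes that break down amino acids in liver. The list named 41 genes by symbol, and 37 of them were measured by a probe set that the platform annotation pairs with that symbol alone. Ass1, Gls2, Sds and Sdsl were not analysed here. These 37 stand among 19540 genes on 8 Affymetrix arrays of mouse liver total RNA, and where a gene had several probe sets the brightest over the 8 arrays represented it. Of the arrays, 4 came from wild-type livers (WT) and 4 from livers depleted of HNF6 (HNF6KO), the homeodomain factor encoded by Onecut1. Both groups were male C57B/6 mice aged 12 weeks, fed normal chow with no specific treatment and sampled at ZT10, which is 10 h after lights on. The labels do not say how HNF6 was depleted, in which cells, or whether each array came from its own animal. The p-values therefore reflect the spread among these arrays, which may be technical.

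Amino acids that the liver does not use for protein are stripped of their nitrogen, and the carbon skeletons feed gluconeogenesis, ketogenesis or the citric acid cycle. The nitrogen is released as ammonia or handed to aspartate, and the urea cycle, which runs partly in mitochondria and partly in the cytosol of hepatocytes, turns both into urea. Most of these enzymes are strongly expressed in hepatocytes, many of them more around the portal vein than around the central vein, and glucagon, glucocorticoids and protein intake raise several of them.

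The values are on a scale read as log2, on which a difference of 1 is a doubling, and array medians lay between 6.89 and 6.97. In the libraries labelled HNF6KO the Onecut1 transcript (Entrez 15379) lay at 9.32, 9.05, 8.67 and 8.70 on arrays 1 to 4, below every WT array (10.17, 9.87, 10.45 and 10.52). The fall was deeper on arrays 3 and 4 (by 1.80 on the log2 scale) than on arrays 1 and 2 (by 0.83), a difference that was not tested. Hepatocyte markers were bright on every array, and all 7 measured (Alb, Ttr, Apoa1, Ahsg, Serpina1c, Fgb and Apob) differed between the groups by 0.12 or less. Their values, 13.26 to 14.11, lay at the top of the range of all values (3.69 to 14.11). How well differences are resolved there was not tested. Alb and Ttr were separated upward (28.6% of the 7, against 2.45% of all genes), and 0 of the 7 passed (limma). Bile duct markers (Krt19, Krt7, Sox9, Epcam and Cftr) stayed between 4.64 and 7.37. Markers of some other liver cells differed by array number. Kupffer cell markers were higher on arrays 3 and 4 than on arrays 1 and 2 for 7 of 8 genes in WT and 8 of 8 in HNF6KO. For sinusoidal endothelial markers this held for 7 of 7 and 5 of 7, and for bile duct markers for 0 of 5 in each group. Stellate cell markers did so for 5 of 7 in WT and 4 of 7 in HNF6KO, where 2 were lower. Of all genes, 22.5% in WT and 25.7% in HNF6KO were higher on arrays 3 and 4. Between the groups, the change was above 0 for 8 of 8 Kupffer genes (median 0.11) and 7 of 7 endothelial genes (median 0.24). It was above 0 for 5 of 7 stellate genes (median 0.11) and 3 of 5 bile duct genes (median 0.01), against 42.6% of all genes. In these 4 lists 0 genes were past an unadjusted p of 0.05 (limma) and 0 were separated. Of the red cell markers, 2 of 3 measured were separated downward between the groups, against 3.21% of all genes, and 0 passed (limma). Alas2, the heme synthesis enzyme of erythroid cells, read 9.70, 9.82, 10.02 and 9.70 in WT and 9.32, 9.09, 8.39 and 8.53 in HNF6KO, a change of -0.98 ± 0.19 (SE; limma, adjusted p = 0.0925). Epb42, which lay below the array medians on every array (5.45 to 5.62), had a change of -0.10 ± 0.04. Slc4a1, which lay near those medians (6.82 to 7.17) and whose arrays overlapped, had one of -0.03 ± 0.08. The part of red cell RNA in the members' values was not tested.

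Most amino acid catabolism genes lay somewhat higher in HNF6KO, and 1 of them, Prodh, passed the test. Prodh rose and 36 members did not pass an adjusted p of 0.05 (limma, Benjamini-Hochberg over all genes), whereas 0.159% of all genes were called higher and 0.241% lower. With 37 members, 1 call is 2.7% of them. The log2 change, HNF6KO minus WT, was above 0 for 31 members and below 0 for 6, with a median of 0.14 and a range from -0.16 to 0.57. Over all genes the median was -0.01, and 42.6% lay above 0. At an unadjusted p of 0.05, 15 members were higher and 0 lower, against 4.30% of all genes higher and 5.21% lower. For 11 members all HNF6KO arrays lay above all WT arrays and for 0 below, where 2.45% of all genes were separated upward and 3.21% downward.

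All members lay above the array medians on every array, with 9.58 as their lowest value. Among the 1504 genes at least as bright as the dimmest member, 9.18% were higher at an unadjusted p of 0.05, 6.18% were separated upward, 48.1% had a change above 0 and 0.332% were called higher. The members share many functions and a cell type and were selected with results of these arrays known, so the counts describe the list and no test was made of it. In RNA from whole liver, fewer cells of a type and less RNA per cell cannot be told apart.

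**Figure D1:**
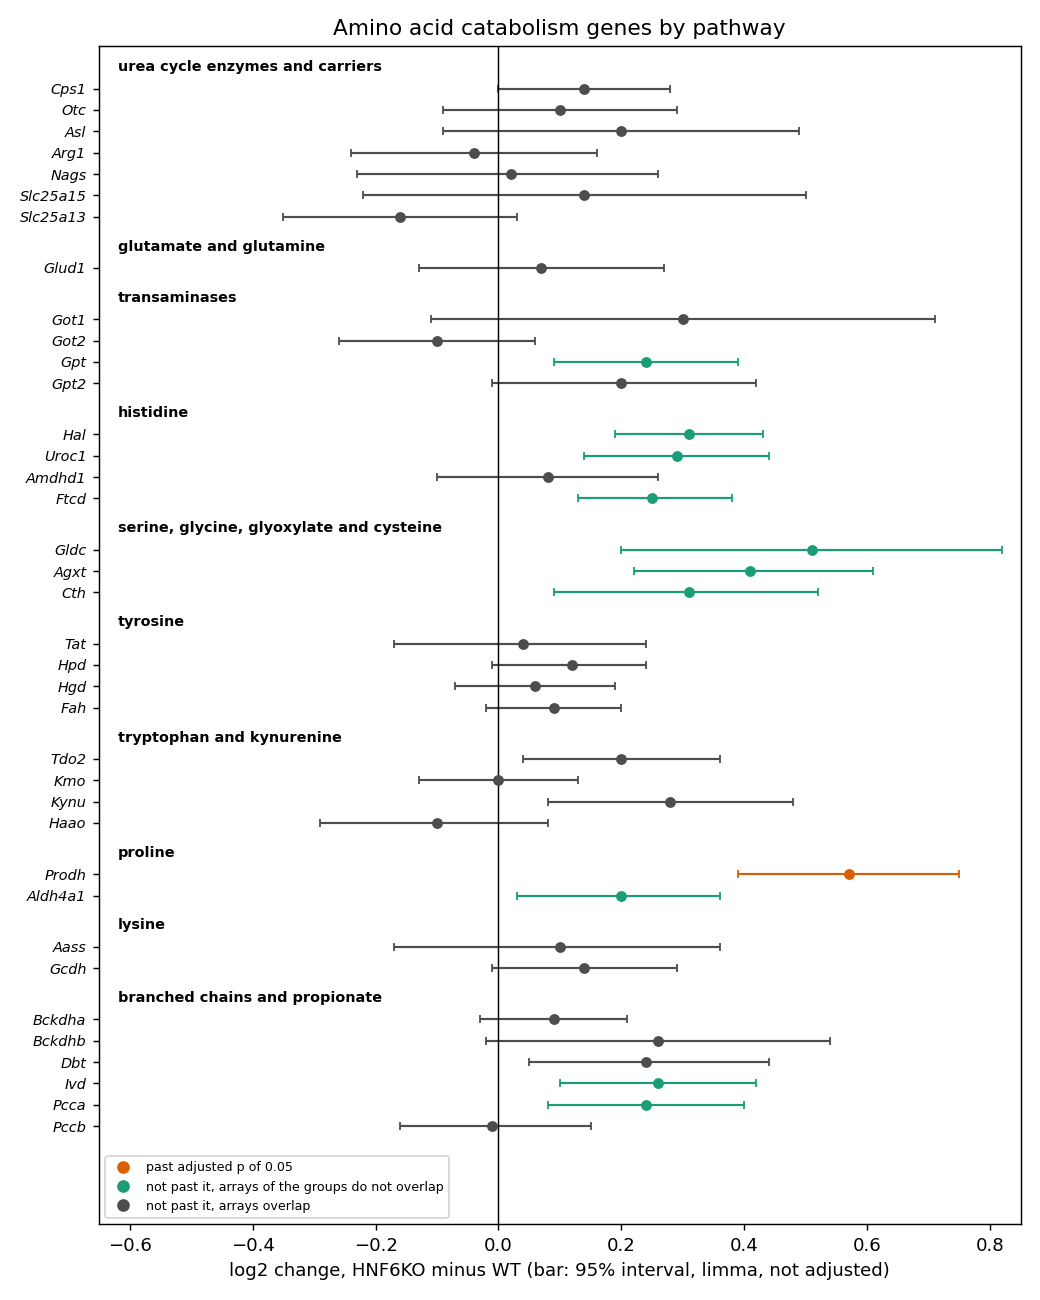
Log2 change of each of the 37 measured genes, HNF6KO minus WT (x axis), grouped by pathway, with the 95% interval of the limma fit as a bar. Prodh alone passed the threshold, the 3 genes of glycine, glyoxylate and cysteine metabolism and 3 of the 4 histidine genes lay to the right without passing, and the urea cycle genes ran from -0.16 to 0.20 and the tyrosine genes from 0.04 to 0.12.

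Proline breakdown held the member that passed. Prodh (Entrez 19125), the mitochondrial proline dehydrogenase that starts the oxidation of proline to glutamate, read 10.79, 10.79, 10.95 and 11.02 across the WT arrays and 11.63, 11.36, 11.43 and 11.41 across the HNF6KO arrays. The lowest HNF6KO array stood above the highest WT array by more than the whole WT range. Its means were 10.89 ± 0.12 in WT and 11.46 ± 0.12 in HNF6KO (SD, n = 4), so Prodh rose 1.48-fold, by 0.57 ± 0.08 (SE) on the log2 scale (limma, adjusted p = 0.0276). Without WT array 1, 2 or 3, or without HNF6KO array 3 or 4, Prodh no longer passed, with changes of 0.54 to 0.59 and adjusted p of 0.0645 to 0.110 in limma.

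Aldh4a1, the dehydrogenase that completes the same route by making glutamate, did not pass. It read 10.83, 10.77, 10.81 and 10.72 in WT and 11.10, 11.11, 10.86 and 10.86 in HNF6KO. The groups did not overlap, but HNF6KO arrays 3 and 4 lay only just above the highest WT array. The difference was 0.20 ± 0.07 (SE; limma, adjusted p = 0.409).

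Of the histidine genes, 0 of 4 passed over all genes (limma). At an unadjusted p of 0.05, 3 were higher, all 3 without overlap of the groups. Among all genes, 4.3% were higher at that p and 2.45% were separated upward. Among the 1504 genes at least as bright as the dimmest member, these shares were 9.18% and 6.18%. Hal (Entrez 15109), the histidase that removes ammonia from histidine and so commits it to breakdown, read 11.91, 11.80, 11.78 and 11.83 in WT and 12.15, 12.21, 12.16 and 12.05 in HNF6KO. Its replicates were tight in both groups, and the mean differed by 0.31 ± 0.05 (SE), or 1.24-fold (limma, adjusted p = 0.0536). Uroc1, the urocanase of the second step, read 11.06, 10.85, 11.15 and 11.08 in WT and 11.30, 11.34, 11.31 and 11.36 in HNF6KO. That is a difference of 0.29 ± 0.07 (SE; limma, adjusted p = 0.150), with the 4 HNF6KO arrays close together. Ftcd, which passes the one-carbon unit of histidine to folate at the end of the route, read 11.27, 11.18, 11.16 and 11.22 in WT and 11.53, 11.52, 11.35 and 11.44 in HNF6KO. Its mean differed by 0.25 ± 0.06 (SE; limma, adjusted p = 0.144). Amdhd1, the imidazolonepropionase between Uroc1 and Ftcd, overlapped between the groups, with a difference of 0.08 ± 0.08 and a 95% interval from -0.10 to 0.26.

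Among genes of glycine, glyoxylate and cysteine, all 3 measured members were separated upward and 0 of 3 passed over all genes (limma). Upward separation held for 2.45% of all genes and for 6.18% of those at least as bright as the dimmest member. Gldc (Entrez 104174), the decarboxylase of the mitochondrial glycine cleavage system, read 9.58, 9.62, 9.96 and 10.11 in WT and 10.15, 10.18, 10.48 and 10.50 in HNF6KO. In each group arrays 3 and 4 were higher than arrays 1 and 2, and HNF6KO exceeded WT by 0.56 within arrays 1 and 2 and by 0.45 within arrays 3 and 4. The overall difference was 0.51 ± 0.14 (SE), or 1.42-fold (limma, adjusted p = 0.232). When the fit carried an array-number term (1 and 2 against 3 and 4), Gldc passed (0.51 ± 0.05, limma adjusted p = 0.00398), as did Hal (0.0235) and Prodh (0.0126). That fit called 3 members, all higher, against 0.548% of all genes higher and 0.706% lower. The labels name no batch that matches these numbers.

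Agxt (Entrez 11611), the aminotransferase that turns glyoxylate into glycine and so limits oxalate formation, read 11.01, 10.89, 11.06 and 10.97 in WT. On the HNF6KO arrays it read 11.30, 11.64, 11.40 and 11.24. The 4 HNF6KO arrays spread more (SD 0.18) than the WT arrays (SD 0.08), and the mean differed by 0.41 ± 0.09 (SE), or 1.33-fold (limma, adjusted p = 0.119). Cth, the cystathionine gamma-lyase that forms cysteine, read 12.27, 12.35, 12.41 and 12.26 in WT and 12.70, 12.88, 12.43 and 12.52 in HNF6KO. HNF6KO array 3 lay barely above WT array 3, and the difference was 0.31 ± 0.09 (SE; limma, adjusted p = 0.307).

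**Figure D2:**
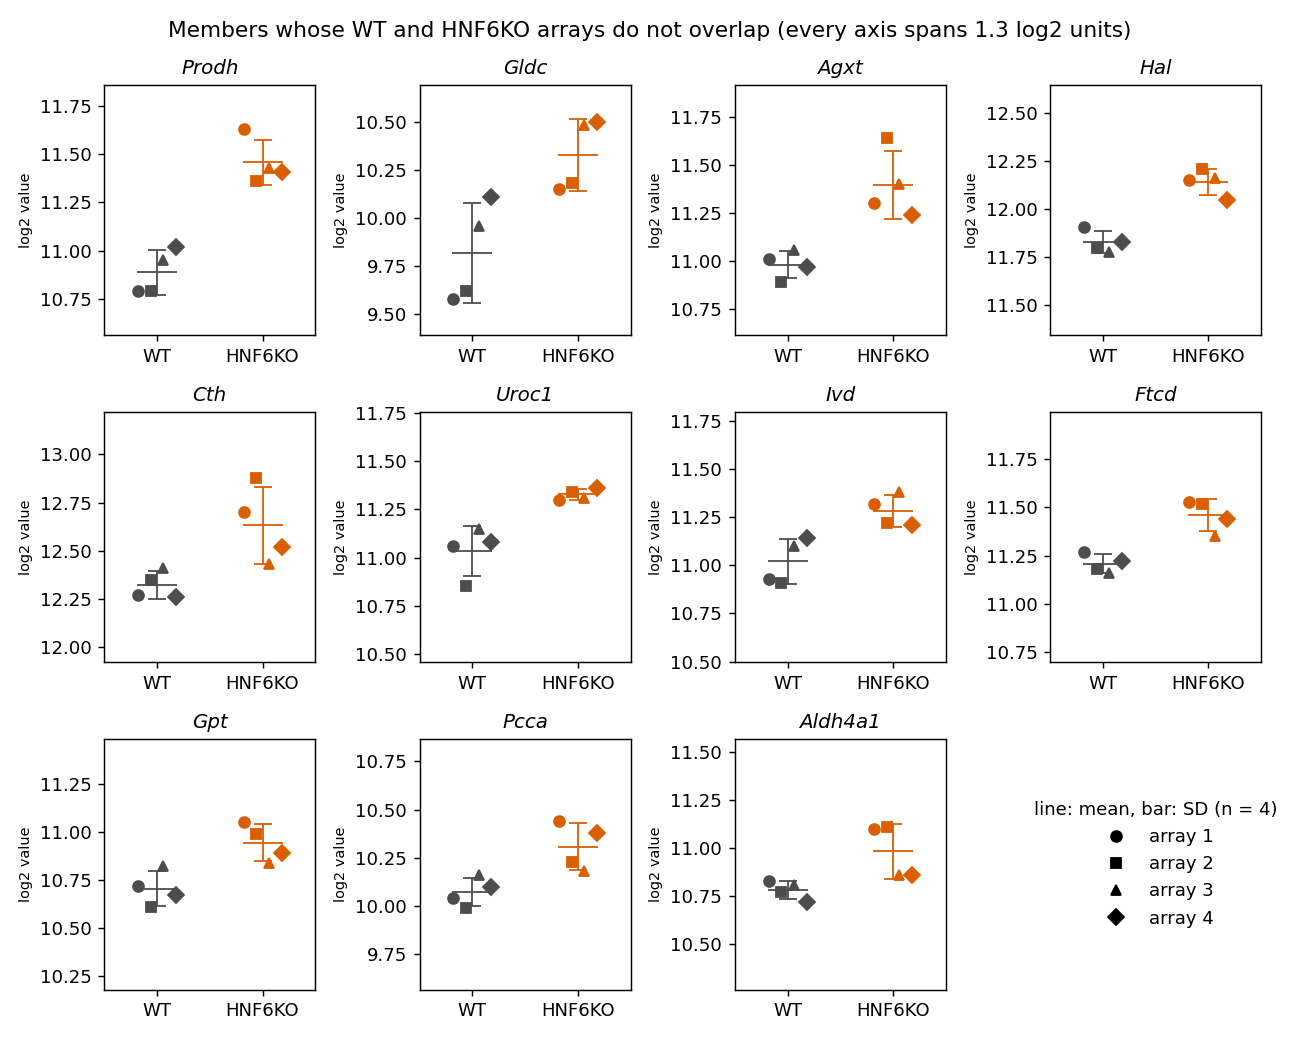
Log2 values of the 11 members whose WT (grey) and HNF6KO (orange) arrays do not overlap, each symbol being 1 array, with the mean as a line and the SD (n = 4) as a bar. The gap between the groups is widest for Prodh, and the nearest arrays of the groups almost meet for Gldc, Cth, Gpt, Pcca and Aldh4a1.

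The alanine transaminases leaned upward, while the 2 aspartate transaminases had changes of opposite sign. Gpt, the alanine transaminase found mainly in cytosol, read 10.72, 10.61, 10.82 and 10.67 in WT and 11.05, 10.99, 10.84 and 10.89 in HNF6KO. HNF6KO array 3 lay just above WT array 3, and the means differed by 0.24 ± 0.07 (SE; limma, adjusted p = 0.250). Gpt2, the mitochondrial alanine transaminase, differed by 0.20 ± 0.09 with overlapping arrays. Got1, the cytosolic aspartate transaminase, was 0.30 ± 0.18 higher, and its SD of 0.32 in WT and 0.30 in HNF6KO was as large as that difference. For mitochondrial Got2, whose reaction supplies aspartate, the change was -0.10 ± 0.07, and a dimmer probe set of the gene gave -0.08. Of these 4 genes, 0 passed (limma), and Gpt alone was past an unadjusted p of 0.05, where 4.3% of all genes were higher. Glud1, the glutamate dehydrogenase that frees ammonia in mitochondria, differed by 0.07 ± 0.09 with a 95% interval from -0.13 to 0.27.

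The urea cycle itself showed small differences in both directions. Of 7 measured enzymes and carriers 0 passed over all genes (limma), and the groups overlapped for every one of them. At an unadjusted p of 0.05, 1 was higher, against 4.3% of all genes. Cps1, the carbamoyl phosphate synthetase that brings ammonia into the cycle, read 13.33, 13.27, 13.48 and 13.47 in WT and 13.48, 13.50, 13.56 and 13.58 in HNF6KO. The lowest HNF6KO array met the highest WT array, and the means differed by 0.14 ± 0.06 (SE), or 1.10-fold (limma, adjusted p = 0.521). Otc, which joins carbamoyl phosphate to ornithine, differed by 0.10 ± 0.08 (95% interval -0.09 to 0.29). Asl, the argininosuccinate lyase, differed by 0.20 ± 0.13, and its WT arrays ranged from 11.33 to 11.94. Arg1, the arginase that releases urea, had a change of -0.04 ± 0.09 (95% interval -0.24 to 0.16). Nags, which makes the activator that Cps1 requires, differed by 0.02 ± 0.11 (95% interval -0.23 to 0.26).

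The 2 carriers had changes of opposite sign. Slc25a15, which exchanges ornithine and citrulline across the inner mitochondrial membrane, differed by 0.14 ± 0.16. Slc25a13, or citrin, which exports aspartate from mitochondria, had a change of -0.16 ± 0.08 (limma, adjusted p = 0.608), the lowest of all 37. The upper ends of the 95% intervals within the cycle ran from 0.03 for Slc25a13 to 0.50 for Slc25a15, all below the Prodh estimate of 0.57. The interval of Prodh itself, 0.39 to 0.75, overlapped those of Slc25a15 (-0.22 to 0.50) and Asl (-0.09 to 0.49). Differences between genes were not tested.

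The tyrosine genes differed by 0.12 or less. Tat, the tyrosine aminotransferase known for its induction by glucocorticoids, differed by 0.04 ± 0.09 with values from 13.51 to 13.86 over all arrays. Hpd, the dioxygenase that makes homogentisate, differed by 0.12 ± 0.06. Hgd, which opens the ring of homogentisate, differed by 0.06 ± 0.06, and Fah, the hydrolase of the last step, by 0.09 ± 0.05. All 4 overlapped between the groups, and 0 of 4 passed the adjusted test (limma) or an unadjusted p of 0.05.

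Within tryptophan breakdown 2 genes had changes above 0 and 2 had changes at or below 0. Tdo2, the dioxygenase that opens the indole ring, read 12.97, 12.99, 13.12 and 13.19 in WT and 13.17, 13.22, 13.36 and 13.33 in HNF6KO, with HNF6KO array 1 inside the WT range. Its difference was 0.20 ± 0.07 (SE; limma, adjusted p = 0.377). Kynu, the kynureninase, read 11.35, 11.45, 11.66 and 11.72 in WT and 11.72, 11.80, 11.89 and 11.89 in HNF6KO. Its lowest HNF6KO array matched the highest WT array to 2 decimals, and it differed by 0.28 ± 0.09 (SE; limma, adjusted p = 0.329). Kmo, the monooxygenase that precedes it, had the same mean of 11.81 in both groups, with a 95% interval of the change from -0.13 to 0.13. Haao, which forms the precursor of quinolinate, had a change of -0.10 ± 0.08. Of these 4, 0 passed over all genes (limma).

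Of the 6 genes for branched-chain amino acids and propionate, 0 passed over all genes (limma), and the median change was 0.24. At an unadjusted p of 0.05, 3 were higher. The share at that p was 4.3% of all genes and 9.18% of those at least as bright as the dimmest member. Ivd, the isovaleryl-CoA dehydrogenase of leucine breakdown, read 10.93, 10.91, 11.10 and 11.14 in WT and 11.32, 11.22, 11.38 and 11.21 in HNF6KO. Its groups were apart by a difference of 0.26 ± 0.07 (SE; limma, adjusted p = 0.234). Pcca, the biotin-carrying alpha subunit of propionyl-CoA carboxylase, read 10.04, 9.99, 10.16 and 10.10 in WT and 10.44, 10.23, 10.18 and 10.38 in HNF6KO, a difference of 0.24 ± 0.07 (SE; limma, adjusted p = 0.294). Pccb, the beta subunit of that enzyme, had the same mean of 10.27 in both groups, and its 95% interval of -0.16 to 0.15 overlapped that of Pcca, 0.08 to 0.40. The difference between the subunits was not tested. In the branched-chain ketoacid dehydrogenase, the core subunit Dbt differed by 0.24 ± 0.09, Bckdhb by 0.26 ± 0.12 and Bckdha by 0.09 ± 0.05, all with overlapping arrays. In lysine breakdown, Aass, the first enzyme, differed by 0.10 ± 0.12, and Gcdh, the glutaryl-CoA dehydrogenase, by 0.14 ± 0.06.

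The members' changes were mostly larger within arrays 1 and 2 than within arrays 3 and 4. That difference was not tested, and the split was chosen with earlier results known. Within arrays 1 and 2, 33 members were higher in HNF6KO, with a median change of 0.28, while 50.1% of all genes lay above 0. Within arrays 3 and 4, 28 members were higher, with a median of 0.10, against 41.2% of all genes. The change was above 0 in both pairs for 26 members and below 0 in both for 2. It was larger within arrays 1 and 2 for 31 of the 37. In WT, arrays 3 and 4 both exceeded arrays 1 and 2 for 22 members, or 59.5%, where 22.5% of all genes did so. In HNF6KO this held for 10 members, or 27.0%, against 25.7% of all genes. Whether the higher WT arrays 3 and 4 are linked to the Kupffer and endothelial markers on the same arrays was not tested.

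**Figure D3:**
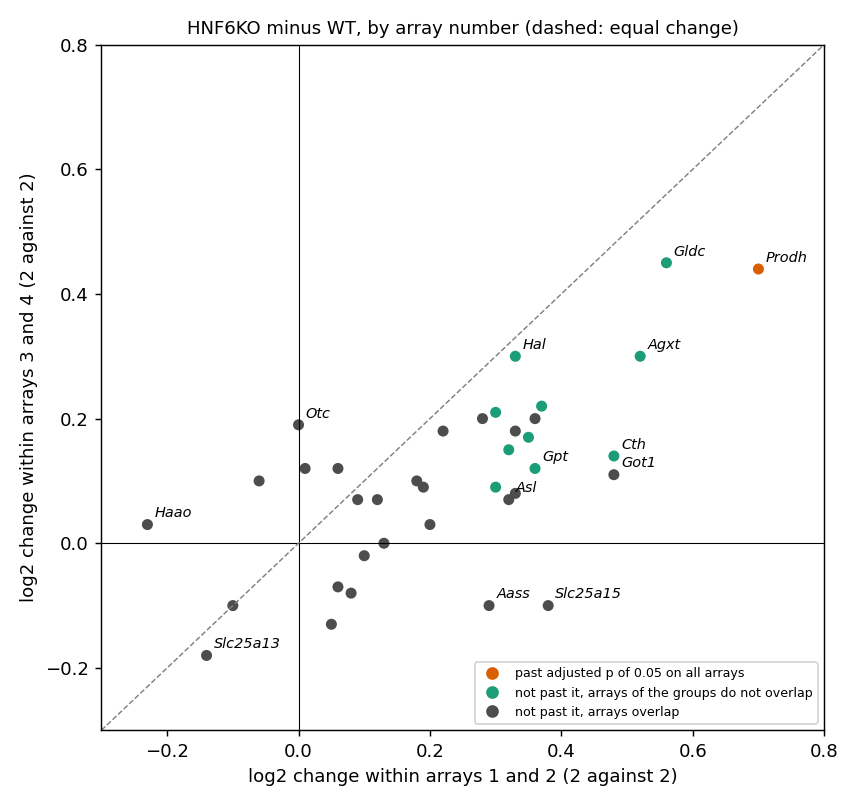
Log2 change of each member within arrays 1 and 2 (x axis) and within arrays 3 and 4 (y axis), each 2 HNF6KO against 2 WT arrays. Most points lie below the dashed line of equal change. Hal and Gldc lie close to it, while Slc25a15 and Aass had values of 0.38 and 0.29 within arrays 1 and 2 and of -0.10 within arrays 3 and 4.

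The start of the gene was compared for the members with the smallest p-values, because HNF6 binds DNA at short AT-rich sites. RefSeq windows (GRCm38.p6) from 250 bases before to 50 after the start were found for 30 of the 37 members, 33 windows in all. The 3 motifs searched, on both strands, are forms of the HNF6 core. The first was ATTGAT in any context. The next differed in its last base and was spelled ATTGAC in the search. The last was its own reverse complement and was spelled ATCGAT in the search. At least 1 of them was present in 4 of the 33 windows, or 12.1%, and in 13.9% of all 32851 windows of that length. The windows of Hal (chr10:93488518-93488817, plus strand), Agxt (chr1:93134990-93135289, plus strand) and Prodh (chr16:18089141-18089440, minus strand) are shown because the first 2 hold a motif and the gene that passed the test does not. The window of Ftcd, the member next in order of p (limma, unadjusted p = 0.00147), held none of the motifs and is not shown. Sequences read 5' to 3' along the gene, and capitals mark the motifs.
Hal: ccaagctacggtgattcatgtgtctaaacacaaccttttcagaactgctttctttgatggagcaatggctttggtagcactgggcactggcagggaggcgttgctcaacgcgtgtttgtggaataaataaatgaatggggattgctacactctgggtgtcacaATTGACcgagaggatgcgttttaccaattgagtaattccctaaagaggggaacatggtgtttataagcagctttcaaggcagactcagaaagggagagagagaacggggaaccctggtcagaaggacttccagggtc
Agxt: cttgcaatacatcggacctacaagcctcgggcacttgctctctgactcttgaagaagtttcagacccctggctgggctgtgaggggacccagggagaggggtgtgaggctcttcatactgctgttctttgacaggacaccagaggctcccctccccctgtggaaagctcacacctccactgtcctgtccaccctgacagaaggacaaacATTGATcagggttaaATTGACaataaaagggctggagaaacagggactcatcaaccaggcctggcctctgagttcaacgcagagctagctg
Prodh: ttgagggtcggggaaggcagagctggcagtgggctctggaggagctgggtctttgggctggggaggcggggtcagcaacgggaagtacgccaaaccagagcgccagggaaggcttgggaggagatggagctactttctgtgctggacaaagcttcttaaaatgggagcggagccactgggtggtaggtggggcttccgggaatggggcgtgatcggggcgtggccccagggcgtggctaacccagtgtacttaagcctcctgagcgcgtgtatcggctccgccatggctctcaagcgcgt
In Hal the match was ATTGAC, starting 87 bases before the start. Agxt held ATTGAT starting 41 bases and ATTGAC starting 26 bases before the start. The other windows with a match belonged to Aass and Hgd, whose groups overlapped. A match is a run of letters, not a measured binding site, and a window without one says nothing of sites elsewhere.

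Beyond these members, 50 of 58 other genes of amino acid breakdown were measured, of which 2 rose, 1 fell and 47 did not pass. Their median change was 0.04, with 60.0% above 0. At an unadjusted p of 0.05, 12 of the 50 (24.0%) were higher and 2 lower, and 8 were separated upward and 1 downward. Of all genes 0.159% were called higher and 0.241% lower, and 4.3% were higher and 5.21% lower at an unadjusted p of 0.05 (limma). Separated upward were 2.45% of all genes, and downward 3.21%. Kyat1 (Entrez 70266), a transaminase that acts on kynurenine at the branch where Kynu and Kmo also act, read 10.53, 10.55, 10.56 and 10.77 in WT and 9.60, 10.05, 9.94 and 9.70 in HNF6KO. The groups were far apart, and Kyat1 fell by 0.78 ± 0.11 (SE) on the log2 scale (limma, adjusted p = 0.0249). Mccc1, a subunit of the carboxylase that follows Ivd in leucine breakdown, read 9.43, 9.50, 9.46 and 9.53 in WT and 9.96, 9.85, 9.87 and 10.05 in HNF6KO. It rose by 0.45 ± 0.06 (SE), or 1.37-fold (limma, adjusted p = 0.0187), while the partner subunit Mccc2 had a change of 0.05 ± 0.07. Asrgl1, an enzyme that hydrolyses asparagine and isoaspartyl peptides, rose by 0.37 ± 0.05 (SE; limma, adjusted p = 0.0187), from 7.59 to 7.65 in WT to 7.91 to 8.03 in HNF6KO. Each of these 3 calls was lost without some array. Asrgl1 and Kyat1 stayed past the threshold only without HNF6KO array 1 or 2, and Mccc1 without any 1 of the HNF6KO arrays or WT array 4, with adjusted p up to 0.0969, 0.104 and 0.0858 otherwise (limma).

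Amino acid transporters did not share the upward lean. Of 26 measured, 0 passed (limma). At an unadjusted p of 0.05, 2 were higher and 3 lower, where 4.3% of all genes were higher and 5.21% lower. For 18 the change was below 0 (median -0.07), and 30.8% lay above 0, against 42.6% of all genes. Slc7a5, the large neutral amino acid exchanger, was separated downward with a change of -0.25 ± 0.07 (limma, adjusted p = 0.230). Slc38a4, a sodium-coupled carrier of neutral amino acids, was also separated downward, by a change of -0.12 ± 0.05 (limma, adjusted p = 0.428). Slc43a1, a carrier of large neutral amino acids, read 8.39, 8.15, 8.86 and 8.75 in WT and 8.76, 9.01, 9.93 and 9.84 in HNF6KO. Its arrays 3 and 4 were the highest in each group, and the difference was 0.85 ± 0.28 (SE; limma, adjusted p = 0.344), and the fit with the array-number term gave an adjusted p of 0.0108.

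Of 20 regulators that act on these genes or on liver nitrogen handling, Onecut1, the depleted gene, fell by 1.32 ± 0.18 on the log2 scale (limma, adjusted p = 0.0273) and 19 did not pass. Onecut1 itself stayed past the threshold only without WT array 2 or HNF6KO array 1 or 2, and leaving out any of the other 5 arrays gave adjusted p of 0.0633 to 0.0954 (limma). Crtc2, the coactivator of the cAMP response, had a change of -0.21 ± 0.07 (limma, adjusted p = 0.370). Ppargc1a, a coactivator of fasting metabolism, had one of 0.44 ± 0.20 (limma, adjusted p = 0.538) and overlapped between the groups. For Gcgr, the glucagon receptor, and Nr3c1, the glucocorticoid receptor, the changes were 0.01 ± 0.09 and 0.03 ± 0.05. Klf15, a regulator of amino acid breakdown, had a change of -0.05 ± 0.10, and Cebpa one of -0.21 ± 0.10.

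Markers of both ends of the liver lobule had median changes slightly below 0. Among all genes the median was -0.01 and 42.6% lay above 0, a share that the central-side genes nearly matched. At an unadjusted p of 0.05 (limma), 4.3% of all genes were higher and 5.21% lower. Of 8 measured portal-side hepatocyte genes outside the list, 2 had a change above 0 and 6 below, with a median of -0.13, and 0 passed (limma), with 2 higher and 2 lower at an unadjusted p of 0.05. Cyp2f2 had a change of -0.28 ± 0.11 and Cdh1 one of -0.33 ± 0.11, while Aldh1b1 had one of 0.65 ± 0.18. Of 10 central-side genes, 4 lay above 0 and 6 below, with a median of -0.07, 0 passing (limma) and 1 higher at an unadjusted p of 0.05, Lect2 (0.53 ± 0.12). Glul and Oat, central-side enzymes of glutamine and ornithine, had changes of -0.06 ± 0.11 and 0.05 ± 0.08. The median of the members over the WT mean was 0.11, 0.18, 0.16 and 0.19 on HNF6KO arrays 1 to 4, all above the WT arrays (-0.05, -0.10, 0.08 and 0.05). The same measure for the Kupffer list ran from -0.73 to 0.42 in WT and from -0.64 to 0.84 in HNF6KO, and its part in the members' values was not tested.

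**Figure D4:**
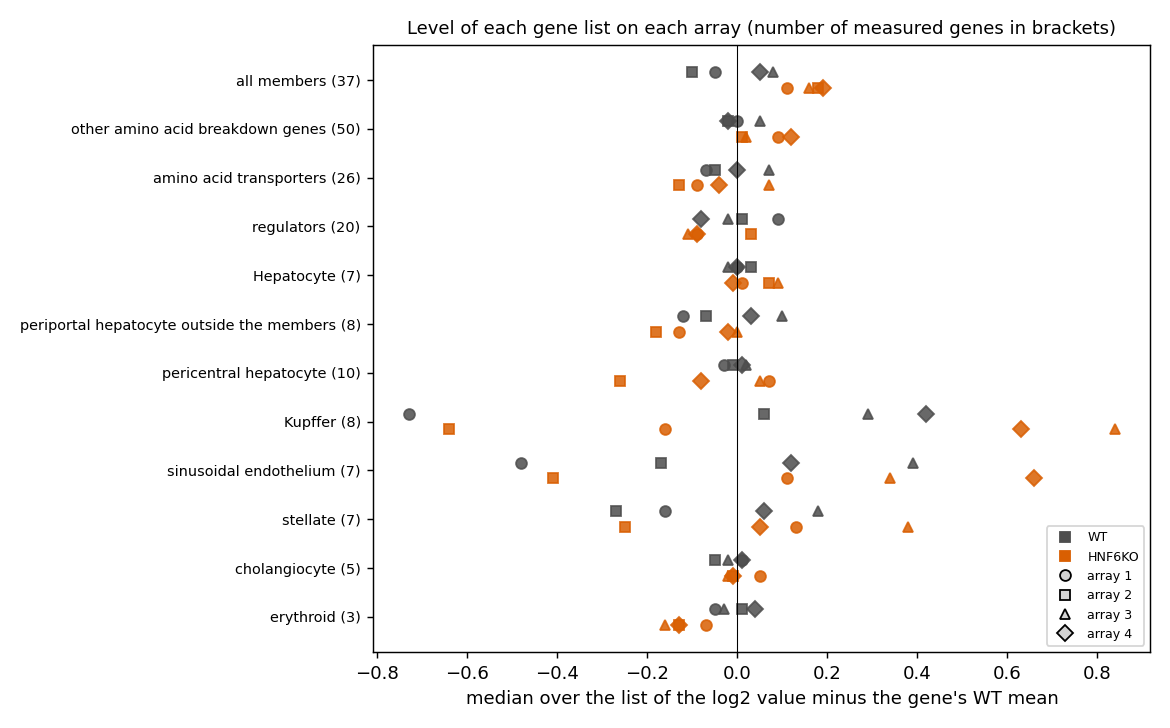
Median over each gene list of the log2 value minus that gene's WT mean, by array, with WT in grey and HNF6KO in orange. The members lay above 0.10 on every HNF6KO array, the transporters and the portal-side and central-side hepatocyte genes overlapped between the groups, and the Kupffer and endothelial lists spread widely with array number.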

How the data were processed

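The authors deposited 1 table of log2 expression values per probe set and array, read as log2 from their range (3.69 to 14.11). The background correction, normalization, summarisation and log base were not given in the sources used here. If the authors scaled the arrays to each other, a shift common to most genes is hidden. RNA was extracted with Trizol and labelled with biotin, per the labels' protocols. Of 22725 probe sets, 21113 had 1 gene symbol, 43 had several and 1569 were unnamed here. The last 2 kinds were left out, which gave 19540 genes with 0 missing values. No filter was applied before testing.

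The groups were compared by limma 3.58.1 under R 4.3.3 (lmFit, then eBayes without trend or weights). The p-values were adjusted by Benjamini-Hochberg across all 19540 genes, and 0.05 was the threshold. All adjusted p-values are from limma. SE is the moderated one, and 95% intervals use it without adjustment. The fit was tested on simulated data. The members, the lists and the split of the arrays by number were chosen with earlier results of these data known. Values on every array are given for members past the threshold or without overlap of the groups, and among other genes those past the threshold and the 3 per list with the smallest p are named, with further examples chosen after their values were seen. The number of arrays limits the precision. Alternatives were quantile normalization, median centring, a filter at the 40th percentile, a trend with robust variances, array weights, the mean of probe sets, single probe sets, thresholds of 0.01 and 0.1, the array number as a block, a term for array numbers 1 and 2 against 3 and 4, each of these pairs alone, and each array left out.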

Additional observations from a re-analysis of the deposited data

Results flagged for a closer look

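Among the 92 groups of 4 arrays examined for the 37 members and 9 other named genes, 3 held an array far from the rest by Dixon's criterion for 4 values (the gap to the nearest array against the whole range), none of them for a member. Chance alone flags about 1 in 20 such groups. Kyat1 read 10.77 on WT array 4, above the other WT arrays and away from the lower HNF6KO values. Slc7a5 read 7.24 on HNF6KO array 1, the HNF6KO value nearest to WT. Crtc2 read 8.77 on HNF6KO array 2, the lowest of its group.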

How the results depend on the processing

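Of 667 values of single members under alternatives, 25 changed sign, in 9 members whose change was at most 0.14 in size. None of the 11 members with separated groups changed sign. The sign changes were Pccb after quantile normalization (0.01), Kmo after median centring (0.00), and Pccb with array weights (0.03). Within arrays 1 and 2 they were Arg1 (0.05), Nags (-0.06), Kmo (0.08) and Pccb (0.06), and within arrays 3 and 4 Slc25a15 and Aass (each -0.10), Tat (-0.02), Hgd (-0.00) and Haao (0.03). With 1 array left out, Tat ran from -0.02 to 0.09, Nags from -0.05 to 0.12, Arg1 from -0.12 to 0.01, Kmo from -0.03 to 0.04 and Pccb from -0.04 to 0.03.

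The count of members called higher was 1. It was 3 with array weights (Prodh, Hal and Agxt), 3 with the array-number term (1 and 2 against 3 and 4; Prodh, Hal and Gldc), 0 within arrays 1 and 2 and 0 within arrays 3 and 4, where each side had 2 arrays, 0 at a threshold of 0.01 and 2 at 0.1. The array weights ran from 0.35 for HNF6KO array 1 to 2 for HNF6KO array 3. The share of all genes called was not counted with these weights or at the other thresholds. It was also not counted within the pairs or with single arrays left out. Those counts of members therefore cannot be set against all genes. Leaving out single arrays gave 0 to 1 members called higher. No member was called lower under any alternative. The median change over members was 0.14, and 0.28 within arrays 1 and 2. The 4 other pathway genes past the threshold became 1 within arrays 1 and 2, 2 within arrays 3 and 4, 0 at a threshold of 0.01, and 0 to 5 with single arrays left out. The causes were not tested. The labels do not say that array numbers pair the groups, so the numbers were not taken as pairs. Same-numbered arrays deviated together with r of 0.44, 0.17, 0.51 and 0.02. Differently numbered arrays reached 0.45 (WT array 3 with HNF6KO array 4) and 0.35 (WT array 2 with HNF6KO array 1). Their lowest r was -0.50 (WT array 1 with HNF6KO array 3). With the number as a replicate block 2 members were called higher (Prodh and Gldc, adjusted p = 0.0187 for Gldc in limma), against 0.271% of all genes higher and 0.368% lower, and Hal did not pass (adjusted p = 0.0965).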
